A study of Mus musculus with 33 samples.

Results

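The RNAs that hnRNP R touched in the nucleus and in the cytoplasm of primary mouse motoneurons were compared gene by gene. The pair consisted of 1 iCLIP library from the nuclear fraction and 1 from the cytoplasmic fraction, both made with antibody 1. A gene entered the comparison with at least 20 cDNAs summed over both libraries, and 2585 of the 36194 gene records did so. A further 106 genes held 19 cDNAs and stayed out, while 106 of the members held exactly 20. The members held 80.3% of the nuclear and 85.0% of the cytoplasmic cDNAs.

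The 2 libraries belong to a series of 33 samples, 11 of them iCLIP. The motoneurons were untreated primary cultures of the CD-1 mouse strain, with no transgene or knockdown named for these libraries. Neither the age of the animals nor the way the fractions were separated is given in the sources used here. They grew in neurobasal medium with B27, 2% horse serum, 500 µM Glutamax and 5 ng/ml of the neurotrophin BDNF, and the medium was first replaced at 24 h. RNA levels came from axonal and somatodendritic samples of GFP control cultures in the series, called the axonal and the somatodendritic control below. The other iCLIP libraries used here included 2 unfractionated motoneuron libraries with the same antibody. The rest came from NSC34, a hybrid mouse line with motoneuron properties, grown with fetal calf serum. NSC34 cells gave 2 unfractionated libraries with antibody 1, a nuclear and a cytoplasmic library with each of antibodies 1 and 2, and 1 library with control IgG. No sample label says that replicates came from separate cultures, so p-values reflect no more than the spread between these libraries, which may be technical.

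hnRNP R is an RNA-binding protein of the heterogeneous nuclear ribonucleoprotein family, present in the nucleus and in the axons of motoneurons, and the closest relative of Syncrip (hnRNP Q). iCLIP crosslinks a protein to RNA with ultraviolet light, pulls it down, and counts cDNAs that stop at the crosslinked base. Introns are removed in the nucleus, so a cDNA in an intron came from unspliced or excised RNA, whereas 3' UTR and coding cDNAs can come from pre-mRNA or mature mRNA. 7SK is a noncoding RNA of nuclear particles that hold the elongation kinase P-TEFb inactive, and it also associates with hnRNP R.

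The nuclear library held 91302 cDNAs and the cytoplasmic one 194816, against 359005 and 319381 in the unfractionated motoneuron libraries. The NSC34 cytoplasmic libraries were shallow, at 3569 (antibody 1) and 2796 cDNAs (antibody 2), and the IgG library held 36280. Values are therefore cDNAs per 1000000 in each library (cpm), a level relative to all other RNAs of that library. Intervals are exact 95% (Clopper-Pearson) limits that cover counting error only. The fractions have 1 library each, so a ratio has no replicate check, and a gene was called when its ratio passed 2-fold. A test was possible only in a fit that pooled the spread of the unfractionated pairs (edgeR's quasi-likelihood test with Benjamini-Hochberg adjustment, 6 libraries), in which the nuclear and cytoplasmic libraries are assumed to vary like those pairs.

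The labelled fractions were checked with RNAs of known location. Small nucleolar RNA records, which guide RNA modification in the nucleolus, summed to 206 nuclear and 40 cytoplasmic cDNAs, a nuclear to cytoplasmic ratio of 11.0 (95% interval 7.80 to 15.8). Small nuclear RNA (snRNA) records had 85 and 70 cDNAs, a ratio of 2.59 (1.87 to 3.61). In the IgG library snRNA records stood at 4879 cpm, above the 931 cpm nuclear and 359 cpm cytoplasmic. Small nucleolar RNA records stood at 1599 cpm in IgG, against 2256 cpm nuclear. RNAs of the mitochondrial genome were 4.55-fold higher in the cytoplasmic library (3.85 to 5.41), with 154 nuclear and 1496 cytoplasmic cDNAs. These sets lay on the side that the labels name. The records of 7SK, an RNA of nuclear particles, lay on the other side. They summed to 123 nuclear and 2626 cytoplasmic cDNAs, 10.0-fold higher in the cytoplasmic library (8.35 to 12.1), and the cause was not tested. The intron share did not set the fractions apart as the sets on the labelled side did. It was 87.5% in the cytoplasmic library, between the unfractionated motoneuron libraries. How much nuclear RNA the cytoplasmic library carried was not tested.

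The label of the cells was checked in the same way. Of the 15 motoneuron markers, Chat had 1 nuclear and 0 cytoplasmic cDNAs, Isl1 1 and 0, and Mnx1 0 and 0, and the authors' deposited table lists Chat, Isl2 and Mnx1 at 0 FPKM (fragments scaled by gene length and library depth) in the somatodendritic control. Slit2 (40 and 75 cDNAs) and Slit3 (17 and 26), secreted guidance cues, were the motoneuron markers with at least 20 cDNAs. Markers of other neurons summed to 49 nuclear and 164 cytoplasmic cDNAs, and in the authors' deposited table Gad1, the enzyme that makes GABA, stood at 41.4 FPKM. Astrocyte and radial glia markers summed to 9 and 12 cDNAs and microglia markers to 0 and 1. Fibroblast markers summed to 9 and 9 and oligodendrocyte markers to 4 and 7. RNA of many of these markers was present all the same. In the authors' deposited table the somatodendritic control held Fabp7 at 168 FPKM, Aldoc at 121 FPKM and Acta2 at 82.8 FPKM. There, 11 of 12 astrocyte and radial glia markers and 9 of 12 microglia markers reached 1 FPKM. So did 5 of 11 fibroblast and 8 of 10 oligodendrocyte markers, and 11 of 13 markers of other neurons. Chat, Isl2 and Mnx1 were thus at or near 0, but 8 of the 15 motoneuron markers reached 1 FPKM in the somatodendritic control. Crabp1 stood at 80.2 FPKM, Slit2 at 17.2, Ret at 7.88 and Isl1 at 2.42 FPKM. In such bulk cultures, fewer cells of a type and less RNA per cell cannot be told apart.

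**Figure D1:**
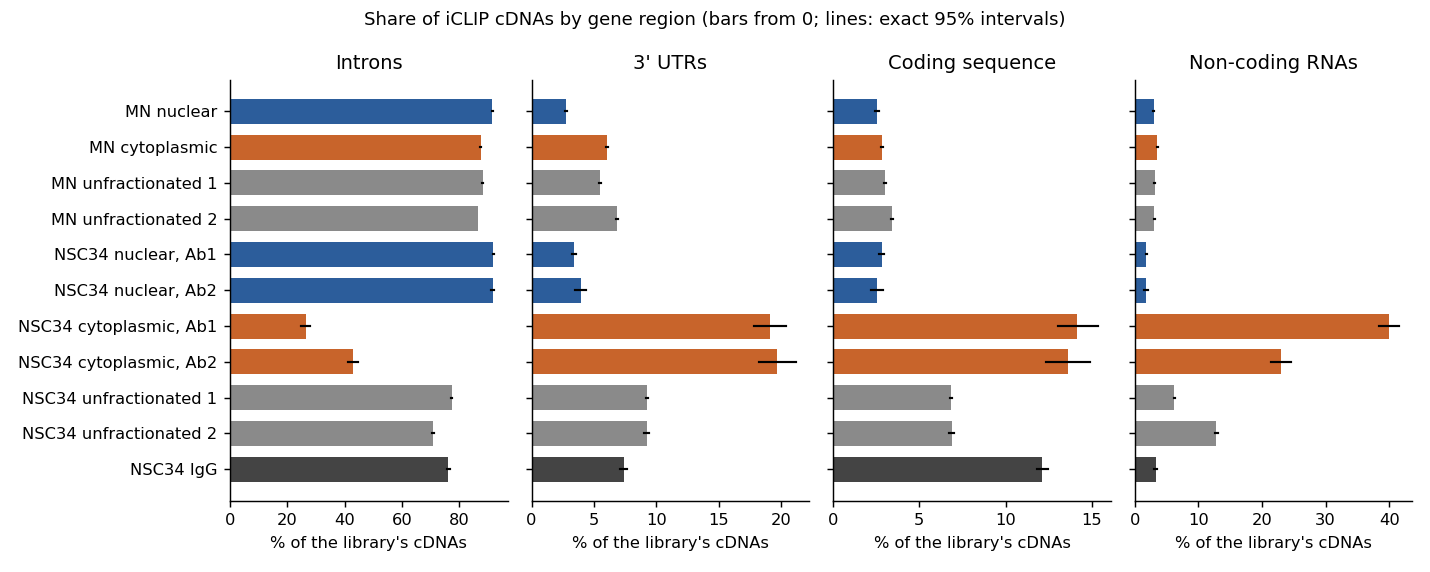
Percent of all cDNAs in introns, 3' UTRs, coding sequence (ORF) and noncoding RNAs in each iCLIP library, each panel with its own axis from 0, with exact 95% intervals (counting error only). In motoneurons the nuclear and cytoplasmic libraries hold 91.5% and 87.5% in introns and 2.77% and 6.03% in 3' UTRs, while the NSC34 cytoplasmic libraries hold 26.4% and 43.0% in introns.

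The clearest difference between the motoneuron fractions at the level of whole libraries lay in 3' UTRs. They held 2.77% of nuclear cDNAs and 6.03% of cytoplasmic cDNAs, so the cytoplasmic share was 2.18-fold higher (2.09 to 2.28). The unfractionated motoneuron libraries, at 5.50% and 6.85%, lay on either side of the cytoplasmic value and above the nuclear one. Coding sequence held 2.55% and 2.83% (cytoplasmic share 1.11-fold higher, 1.06 to 1.17), with 3.03% and 3.42% in the unfractionated libraries. That coding difference was smaller than the gap between the unfractionated replicates. Introns held 91.5% of nuclear and 87.5% of cytoplasmic cDNAs, with 88.1% and 86.5% unfractionated. 5' UTRs held 0.169% and 0.129%, within the range of the unfractionated libraries (0.189% and 0.131%) apart from the cytoplasmic value, just under it.

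NSC34 cells show how far the regions can separate. Their antibody 1 libraries held 91.8% of nuclear and 26.4% of cytoplasmic cDNAs in introns, and their antibody 2 libraries 91.6% and 43.0%. The 3' UTR share was 5.66-fold (5.16 to 6.19) and 5.00-fold (4.33 to 5.78) higher in the cytoplasm there. The intervals for motoneurons and NSC34 cells do not overlap. Their nuclear libraries were nearly alike in introns, and it was the cytoplasmic libraries that differed. The noncoding RNA share was 1.19-fold higher (1.14 to 1.24) in motoneuron cytoplasm. That difference turned round without Rn7sk and the mitochondrial RNAs, to a nuclear to cytoplasmic ratio of 1.66.

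Several small noncoding RNAs and both mitochondrial ribosomal RNAs were higher in the cytoplasmic library. Rn7sk, the 7SK RNA itself (mm9 chr9:78023109-78023439, minus strand), had 100 nuclear and 2321 cytoplasmic cDNAs. Its level was 1095 cpm in the nuclear library, 11914 cpm in the cytoplasmic library and 12607 and 10142 cpm in the unfractionated motoneuron libraries. The nuclear library thus stood apart from the other 3, which lay close together, and below the IgG library's 1268 cpm. Rn7sk was 10.9-fold higher in the cytoplasmic library (8.90 to 13.4), and it passed the pooled test (log2 difference -3.73, SE 0.54, edgeR adjusted p = 5.29e-08). NSC34 cells had the same side: 3864 and 2669 cpm in the nuclear libraries of antibodies 1 and 2, against 267862 and 126967 cpm in the cytoplasmic ones. The cDNAs of Rn7sk covered 32 positions in the nuclear and 83 in the cytoplasmic library.

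Other records of the 7SK family, mostly pseudogene copies, had the same side. Without Rn7sk they summed to 23 nuclear and 305 cytoplasmic cDNAs, 6.21-fold higher in the cytoplasm (4.07 to 9.95). Gm23973 had 3 and 54 cDNAs (8.44-fold, 2.74 to 42.2) and passed the pooled test (edgeR adjusted p = 0.0047). Gm23037 had 6 and 53, Gm26023 4 and 31, and Gm22058 1 and 26. Reads of near-identical copies can be split among them, so the values of single copies are uncertain.

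Y RNAs, short RNAs bound by the Ro60 and La proteins, summed to 8 nuclear and 162 cytoplasmic cDNAs. Rny1 (chr6:47738067-47738178) had 0 nuclear and 56 cytoplasmic cDNAs. It was 8.75-fold lower in the nucleus with a floor of 3 nuclear counts, and the exact lower limit was 6.88-fold. Rny3 (chr6:47731622-47731723) had 8 and 106 cDNAs and was 6.21-fold higher in the cytoplasm (3.04 to 14.8). Rny1 reached 287 cpm in the cytoplasmic library and 212 and 385 cpm in the unfractionated motoneuron libraries. Rny3 stood at 87.6 cpm nuclear, 544 cpm cytoplasmic, and 627 and 1071 cpm unfractionated. The nuclear library was the lowest for both. The NSC34 IgG library held 46 cDNAs of Rny1 (1268 cpm) and 90 of Rny3 (2481 cpm), a higher level than in any motoneuron library for either RNA. The part of background recovery in these levels was not tested.

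The mitochondrial ribosomal RNAs behaved likewise. AY172335.9, the small ribosomal RNA of the mitochondrion, had 36 nuclear and 605 cytoplasmic cDNAs, 7.88-fold higher in the cytoplasm (5.63 to 11.4). AY172335.12, the large one, had 93 and 824 cDNAs, 4.15-fold higher (3.35 to 5.20). For AY172335.9 the unfractionated replicates stood far apart, at 404 and 2041 cpm, and the nuclear value of 394 cpm lay just below the lower of them. For AY172335.12 the unfractionated replicates, at 1081 and 1180 cpm, lay next to the nuclear 1019 cpm and far below the cytoplasmic 4230 cpm. IgG recovered both, at 1240 cpm for AY172335.9 and 1351 cpm for AY172335.12. The 13 mitochondrial protein-coding records had only 2 nuclear and 37 cytoplasmic cDNAs. Mitochondrial tRNAs did not separate, with 23 and 30 cDNAs and a nuclear to cytoplasmic ratio of 1.64 (0.907 to 2.91).

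**Figure D2:**
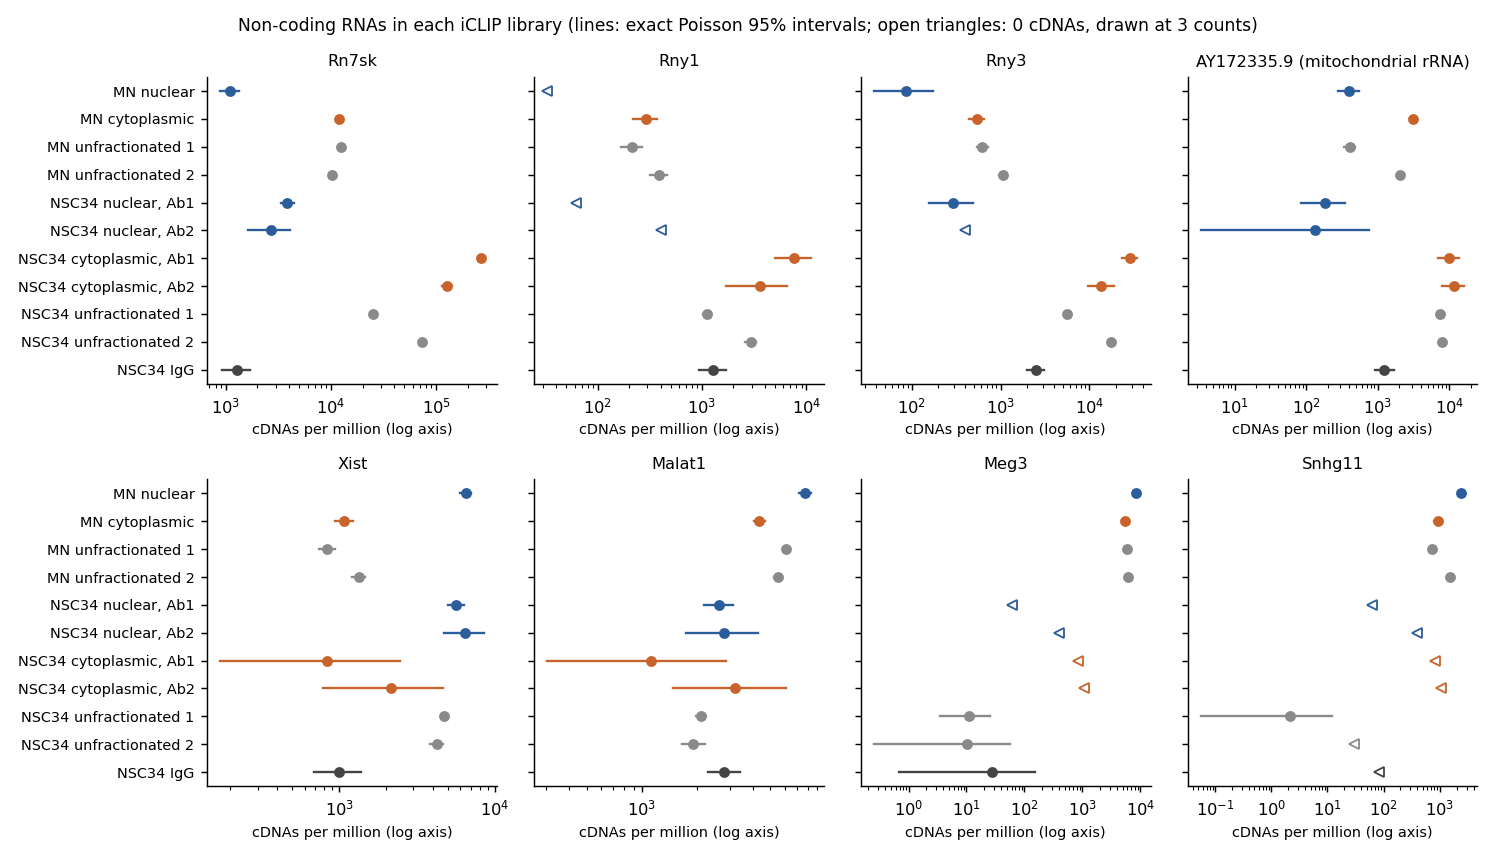
Level of 8 noncoding RNAs in cpm (log axes that differ between panels) in each of the 11 iCLIP libraries (MN, motoneurons), with exact Poisson 95% intervals and open triangles at 3 counts where a library has 0 cDNAs. In motoneurons Rn7sk is at 1095 cpm in the nuclear library and at 10142 to 12607 cpm in the other motoneuron libraries, while Xist is at 6484 cpm in the nuclear library and at 836 to 1334 cpm in the others.

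Long noncoding RNAs that stay in the nucleus lay on the other side. Of the 5 listed ones with at least 20 cDNAs, 3 passed 2-fold towards the nucleus and 0 towards the cytoplasm, beside 11.2% and 9.98% of all 2585 genes. Their median log2 ratio was 1.36, beside -0.02 over all genes. Xist, the RNA that coats the inactive X chromosome (chrX:100655713-100678555), had 592 nuclear and 210 cytoplasmic cDNAs. Its level was 6484 cpm nuclear, 1078 cpm cytoplasmic, and 836 and 1334 cpm unfractionated. The nuclear library alone stood high. The ratio was 6.02 (5.13 to 7.07) and passed the pooled test (log2 2.30, SE 0.43, edgeR adjusted p = 0.0003). Within Xist, the intron annotation held 60 nuclear and 5 cytoplasmic cDNAs and the rest 532 and 205.

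Snhg11, a snoRNA host transcript, had 219 and 182 cDNAs and a ratio of 2.57 (2.10 to 3.14). Airn, the imprinted antisense transcript of the Igf2r locus, had 22 and 14 and a ratio of 3.35 (1.64 to 7.09). Malat1, a nuclear speckle RNA, had 702 and 848 cDNAs and a ratio of 1.77 (1.60 to 1.95), and Meg3, an imprinted RNA, 762 and 1051 and a ratio of 1.55 (1.41 to 1.70). Malat1 stood at 7689 cpm nuclear and 4353 cpm cytoplasmic, and the unfractionated libraries at 6103 and 5498 cpm lay between. Malat1 did not pass the pooled test (edgeR adjusted p = 0.703). Among snoRNAs, U8 (Snord118), which acts in ribosomal RNA maturation, had 18 nuclear and 0 cytoplasmic cDNAs. It was 12.8-fold higher in the nucleus with a floor of 3 cytoplasmic counts, and the exact lower limit was 9.38-fold. U8 was below the minimum of 20 cDNAs and is no member, but passed the pooled test (edgeR adjusted p = 0.0014).

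The 3' UTRs of single genes carried the cytoplasmic signal. With at least 20 cDNAs in the 3' UTR over both libraries, 82 genes could be read, and 67 of them (81.7%) passed 2-fold towards the cytoplasm. Only Snhg11 (1.22%) passed it towards the nucleus, with 217 and 179 cDNAs in the part annotated as 3' UTR. The ratio was below 1 in 79 of the 82 genes, and the median log2 ratio was -2.08. The minimum was summed over a nuclear library of 91302 cDNAs and a deeper cytoplasmic one of 194816. A gene could thus pass it through cytoplasmic cDNAs alone, as did 11 of the 82 with 0 nuclear ones. How far this raised the 81.7% was not tested. The unfractionated replicates differed past 2-fold for 18 of the same 82 genes. At the threshold, Hnrnpu (4 and 17 cDNAs) had a ratio of 0.502 and stayed outside. Scaling by the trimmed mean or by DESeq2 size factors gave 73 cytoplasmic genes each.

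Of the listed axonal and dendritic cytoskeleton genes 8 were among the 82, and all 8 passed 2-fold towards the cytoplasm, beside 81.7% of the 82. The examples here were chosen after their values were seen. The 3' UTR of Marcks, an actin-binding substrate of protein kinase C, had 0 nuclear cDNAs, 211 cpm in the cytoplasmic library (41 cDNAs), and 86.4 and 131 cpm in the unfractionated libraries. The 3' UTR of Tmod2, which caps actin filaments in neurons and is in no list, had 1 nuclear cDNA (11.0 cpm) and 58 cytoplasmic (298 cpm), with 228 and 301 cpm unfractionated. For Tmod2 the nuclear library alone was low. Its introns had 7 and 16 cDNAs, a ratio of 0.934 (0.325 to 2.40).

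The 3' UTR of Dcx, doublecortin of migrating neurons, stood at 87.6 cpm nuclear, 498 cpm cytoplasmic, and 404 and 579 cpm unfractionated, 5.68-fold higher in the cytoplasm (2.77 to 13.5). Dpysl2, a tubulin-binding collapsin response mediator, had 1 and 44 cDNAs in the 3' UTR and 26 and 57 in introns. Mapt, the microtubule protein tau, had 1 and 35 in the 3' UTR and 43 and 62 in introns. Mtap2, the dendritic microtubule protein MAP2, stood at 153 cpm nuclear, 508 cpm cytoplasmic, and 418 and 535 cpm unfractionated, 3.31-fold higher (1.88 to 6.28). All 6 of these genes passed the pooled test on gene parts (edgeR adjusted p between 0.0001 for Tmod2 and 0.0388 for Mtap2). In the IgG library the 3' UTR of Marcks stood at 138 cpm (5 cDNAs), above both unfractionated motoneuron values, and that of Tmod2 at 55.1 cpm. Dpysl2 and Mapt stood at 27.6 cpm each in IgG, and Dcx and Mtap2 had 0 IgG cDNAs. The 3' UTRs of Dcx and Mtap2 also had 0 cDNAs in both antibody 1 fractions of NSC34 cells, so their 0 in IgG says little about motoneurons.

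Other genes with many 3' UTR cDNAs were also chosen as examples after their values were seen. The 3' UTRs of Ywhag and Ywhae, 14-3-3 adaptor proteins, had 0 nuclear cDNAs and 29 and 25 cytoplasmic ones (149 and 128 cpm). The IgG library stood at 193 cpm for Ywhag, above its cytoplasmic level, and at 82.7 cpm for Ywhae. The 14-3-3 gene Ywhaz was an exception with 9 nuclear and 17 cytoplasmic cDNAs (98.6 and 87.3 cpm). Slc8a1, a sodium-calcium exchanger, stood at 54.8 cpm nuclear and 385 cpm cytoplasmic, with 301 and 376 cpm unfractionated, 7.03-fold higher (2.88 to 22.3). Its introns, at 173 and 433 cDNAs, had a ratio of 0.853. Gng2, a G protein gamma subunit, had 1 and 34 cDNAs and Fut9, a fucosyltransferase, 5 and 53. Each of these genes other than Ywhaz passed the pooled test on gene parts (edgeR adjusted p = 0.0017 for Slc8a1 and 0.0388 for Fut9). The IgG level of Slc8a1 was 110 cpm, and Gng2 and Fut9 had 0 IgG cDNAs. The 3' UTR of Gria2, an AMPA receptor subunit, had 16 and 53 cDNAs, a cytoplasmic fold of 1.55 (0.874 to 2.91), and did not pass. For 10 of the 82 genes the IgG level of the 3' UTR was above its cytoplasmic level, and for 34 of the 82 it was 0. The IgG library is shallow and from NSC34 cells, where the 3' UTRs of Gng2 and Fut9 had 0 cDNAs in both antibody 1 fractions too. A 0 in IgG is thus not evidence of specific recovery in motoneurons.

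Within a gene the 3' UTR and the introns could point in opposite directions. Ebf3, a transcription factor, had 0 nuclear and 29 cytoplasmic cDNAs in its 3' UTR. That is 4.53-fold lower in the nucleus with a floor of 3 nuclear counts, with an exact lower limit of 3.45-fold. Its introns had 204 and 130, a nuclear ratio of 3.35 (2.67 to 4.20). Camta1, a calmodulin-binding transcription activator, had 1 and 24 in the 3' UTR and 189 and 176 in introns, a nuclear intron ratio of 2.29 (1.86 to 2.83). Among the 61 genes with at least 20 intron cDNAs as well, the 3' UTR ratio was below the intron ratio in 56. Their intron ratios had a median log2 of -0.19, with 5 past 2-fold towards the nucleus and 4 towards the cytoplasm. The minimum on 3' UTR cDNAs bears on the count of 56 too.

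**Figure D3:**
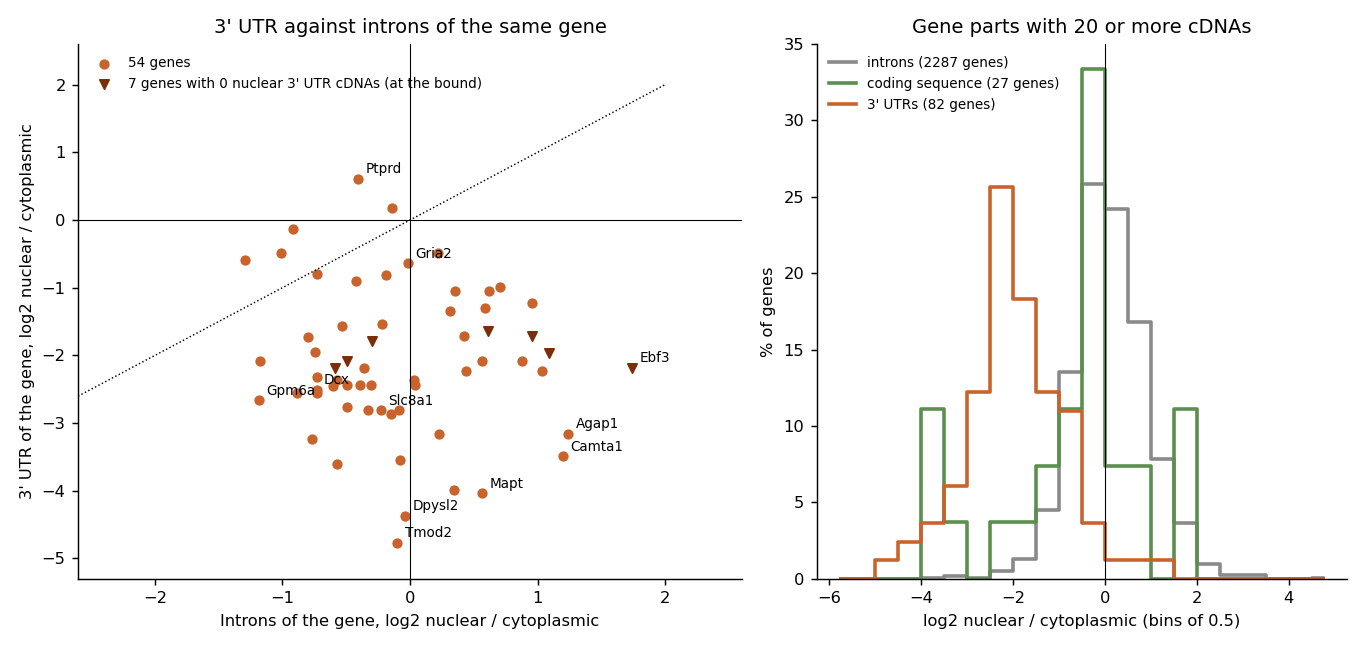
Left, log2 nuclear over cytoplasmic ratio of the 3' UTR against that of the introns in the same gene for 61 genes (dotted, equal ratios; triangles, 0 nuclear 3' UTR cDNAs, at the bound); right, percent of genes by log2 ratio for introns (2287), coding sequence (27) and 3' UTRs (82). The 3' UTR ratio lies below the intron ratio in 56 of the 61 genes, and the 3' UTR curve lies left of 0, with a median of -2.08.

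The cytoplasmic 3' UTR signal was not limited to these genes. The 3698 genes with fewer than 20 cDNAs in the 3' UTR summed to 2034 nuclear and 9256 cytoplasmic ones, 2.13-fold higher in the cytoplasm (2.03 to 2.24). The 82 genes above the minimum summed to 492 and 2501 (2.38-fold, 2.16 to 2.63). Without Snhg11 they summed to 275 and 2322, which is 3.96-fold (3.49 to 4.50). The minimum, passed by some genes through cytoplasmic cDNAs alone, bears on both folds of these genes. The sum over the 82 genes came to 12.7 3' UTR cDNAs per 100 intron cDNAs in the nuclear library, 25.2 in the cytoplasmic one, and 19.2 and 30.2 in the unfractionated libraries. In NSC34 cells it was 15.8 and 21.8 in the nuclear libraries and 196 and 229 in the cytoplasmic ones, with 32.7 in IgG. The cytoplasmic motoneuron value thus lay between the unfractionated replicates and far below the NSC34 cytoplasm.

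Coding sequences were mixed. Of 27 genes with at least 20 coding cDNAs, 8 (29.6%) passed 2-fold towards the cytoplasm and 3 (11.1%) towards the nucleus, with a median log2 ratio of -0.37. Gap43, the growth cone protein, stood at 21.9 cpm nuclear, 226 cpm cytoplasmic, and 114 and 185 cpm unfractionated, 10.3-fold higher in the cytoplasm (2.69 to 87.8). Inpp5f, a phosphoinositide phosphatase, had 1 and 30 coding cDNAs and Eif4g2, a translation factor, 1 and 27. In IgG, Gap43 had 0 coding cDNAs, as it did in both antibody 1 fractions of NSC34 cells. Inpp5f stood at 110 cpm and Eif4g2 at 82.7 cpm in IgG. These 3 genes passed the pooled test on gene parts (edgeR adjusted p = 0.0091, 0.027 and 0.0486). Pafah1b1 (Lis1, a dynein regulator) had 1 and 25, Rtn1, a reticulon, 3 and 34, and Ttc3, a ubiquitin ligase, 8 and 61, and these did not pass.

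Towards the nucleus, the coding part of Hnrnph1, an hnRNP family splicing factor, had 35 and 24 cDNAs, a ratio of 3.11 (1.80 to 5.47). Its level was 383 cpm nuclear, 123 cpm cytoplasmic, and 170 and 122 cpm unfractionated. Pfkp, the platelet phosphofructokinase, had 21 and 12 (3.73, 1.76 to 8.33), and Robo2, an axon guidance receptor, 14 and 10 (2.99, 1.23 to 7.52). None of these 3 passed the pooled test.

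The same shift was read within genes that held at least 20 cDNAs in each library. Among these 894 genes the share of cDNAs in introns was higher in the nuclear library for 557, lower for 188 and equal for 149, with a median difference of 1.32 percentage points. The 3' UTR share was higher in the nuclear library for 137 genes and lower for 455, and the coding share for 167 and 357. Over the 894 genes the intron share differed by 2.29 points between the libraries, of which 2.18 points arose within genes and 0.109 points from a different mix of genes. For 3' UTRs the within-gene part was -1.65 points and the between-gene part 0.326 points. With at least 50 cDNAs in each library (292 genes) the intron share differed by only 0.694 points, 1.19 within genes and -0.493 between genes, so the between-gene part turned.

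Ogt, the O-GlcNAc transferase, had the largest such shift among genes with at least 50 cDNAs in each library, with 73.6% of nuclear and 43.7% of cytoplasmic cDNAs in introns. Ttc3 had 87.0% and 60.1%, Nedd4, a ubiquitin ligase, 92.5% and 71.1%, and Igf1r, the IGF-1 receptor, 100% and 80.0%. The largest shifts the other way were smaller: Pfkp with 75.9% and 90.9%, Gpatch8 with 88.0% and 97.6%, Robo2 with 88.5% and 96.8% and AC125204.2 with 90.9% and 97.0%.

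**Figure D4:**
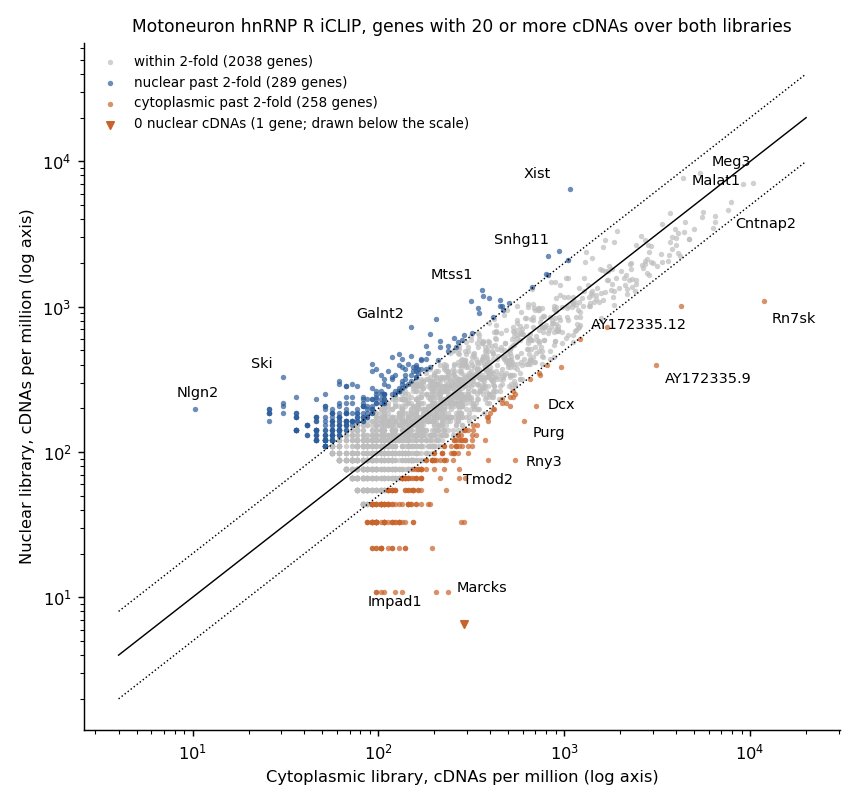
Nuclear against cytoplasmic level of the 2585 genes in cpm (log axes), with the line of equal levels (solid) and 2-fold lines (dotted). Of these genes 289 lie past 2-fold on the nuclear side and 258 on the cytoplasmic side, and most of these have few cDNAs.

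Most whole genes did not differ past 2-fold. Of the 2585 genes, 289 (11.2%) passed it towards the nucleus, 258 (9.98%) towards the cytoplasm and 2038 neither way. The 2 unfractionated replicates differed past 2-fold for 156 of the same genes (6.03%), against 547 (21.2%) between the fractions. The replicates were deeper, with a median of 98 cDNAs per gene against 42. Calls grew rarer with depth, from 17.3% nuclear and 13.4% cytoplasmic at 20 to 29 cDNAs to 3.26% and 2.79% at 200 or more. Among those 215 deepest genes the SD of the log2 ratio was 0.632 between fractions and 0.469 between replicates. The interval excluded a ratio within 2-fold for 37 genes on the nuclear side and 14 on the cytoplasmic side.

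The split between sides depends on the scaling. Trimmed-mean scaling lowers the median log2 ratio by 0.285, and nuclear genes then make up 27.3% of the calls in place of 52.8% (166 nuclear, 442 cytoplasmic). Counting only cDNAs outside introns, 168 genes reached 20 cDNAs, of which 110 passed 2-fold towards the cytoplasm and 10 towards the nucleus. Introns alone gave 298 nuclear (13.0%) and 151 cytoplasmic (6.6%) of 2287 genes. The cytoplasmic genes held 55.5% of their cytoplasmic cDNAs in introns, 29.7% in noncoding RNA and 12.1% in 3' UTRs. The nuclear genes held 86.1% of their nuclear cDNAs in introns.

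In the pooled fit, 6 genes of 9898 (0.0606%) passed towards the nucleus and 13 (0.131%) towards the cytoplasm by edgeR's quasi-likelihood test with Benjamini-Hochberg adjustment. At an unadjusted p under 0.05 there were 395 and 549, and DESeq2's Wald test called 0 of either (20 and 47 unadjusted). Of the 19 genes 17 are among the 2585, and the other 2 are U8 and Phldb1 (14 and 1 cDNAs). On gene parts, 8 of 13238 (0.0604%) passed towards the nucleus and 31 (0.234%) towards the cytoplasm. Those 31 comprised 19 3' UTRs, 3 coding parts, 2 sets of introns and 7 noncoding RNAs, and the 8 comprised 6 sets of introns and 2 noncoding RNAs. DESeq2's Wald test kept 2 of these 39, Rn7sk and AY172335.12.

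Among protein-coding genes with nuclear-side calls in the pooled fit, Nlgn2, an adhesion protein of inhibitory synapses, had 18 nuclear and 2 cytoplasmic cDNAs, a ratio of 19.2 (4.60 to 171). Its level was 197 cpm nuclear, 10.3 cpm cytoplasmic, and 39.0 and 21.9 cpm unfractionated. Ski, a repressor of TGF-beta signalling, had 30 and 6 cDNAs (10.7, 4.37 to 31.4). Galnt2, which starts O-linked glycosylation, had 66 and 29 (4.86, 3.09 to 7.80). The nuclear library was the highest of the motoneuron libraries for all 3. For Galnt2 the IgG library stood higher still, at 203 cDNAs (5595 cpm against 723 cpm nuclear), and its annotated span of 4435 kb can take in other genes. Ski stood at 248 cpm in IgG against 329 cpm nuclear, and Nlgn2 had 0 IgG cDNAs.

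Mtss1, a membrane-bending actin regulator, had 119 and 70 cDNAs, 3.63-fold higher in the nucleus (2.68 to 4.95), and did not pass the pooled test (edgeR adjusted p = 0.0668). D11Bwg0517e had 75 and 40 (4.00, 2.69 to 6.03). Pkd1, which encodes polycystin-1, had 22 and 7, and Gse1 20 and 6. Gse1 stood at 3445 cpm in IgG, above its nuclear 219 cpm. Madd and Slc38a10 had 18 and 5 each, Gpi1, glucose-6-phosphate isomerase, 19 and 6, and Pmepa1 17 and 5. On the cytoplasmic side, Purg, of the Pur family of nucleic acid binding proteins, had 15 and 118 cDNAs, 14 and 110 of them in introns, 3.69-fold higher (2.15 to 6.80). Purg passed the pooled test. Impad1, a Golgi nucleotide phosphatase, had 1 and 40 cDNAs and RP23-22A15.2 3 and 56.

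Ratios were also read by the span of the gene, with which depth rose, from a median of 39.5 cDNAs under 10 kb and 27 at 10 to 50 kb to 468.5 over 800 kb. Of the 32 genes under 10 kb, 8 (25.0%) passed 2-fold towards the nucleus and 13 (40.6%) towards the cytoplasm, beside 11.2% and 9.98% of all genes. The 17 protein-coding genes among them gave 5 and 3, and the other 15, which include the 7SK, Y and mitochondrial ribosomal RNAs, 3 and 10. Of the 219 genes of 400 to 800 kb, 20 and 2 did so, with a median log2 ratio of -0.07. The 76 genes over 800 kb had 5 and 1, but a median of -0.30, and they held 13.3% of nuclear and 17.1% of cytoplasmic cDNAs. The longest genes, nearly all intronic, thus lay slightly towards the cytoplasmic library.

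Synaptic adhesion and cell recognition genes, many of them very long, lay on the same side. All but 2 of the 53 listed genes had at least 20 cDNAs, and 40 of the 51 had a ratio below 1, beside 1323 of all 2585 genes (51.2%). Past 2-fold lay 2 towards the nucleus and 1 towards the cytoplasm, smaller shares than the 11.2% and 9.98% of all genes. Their median log2 ratio was -0.42. Ptprd, a receptor phosphatase, had 640 and 1775 cDNAs (0.769, 0.702 to 0.843), and Lingo2 482 and 1540 (0.668, 0.602 to 0.740). Cntnap2, a contactin-associated adhesion protein, had 426 and 1488 (0.611, 0.547 to 0.681). Both fractions of Ptprd (7009.7 and 9111.16 cpm) lay between its unfractionated libraries (9414.91 and 6675.41 cpm). For Lingo2 (5279.18 and 7904.89 cpm) the nuclear library lay below both unfractionated ones (8373.14 and 6609.66 cpm). The same held for Cntnap2 (4665.83 and 7637.98 cpm, with 7356.44 and 9471.45 cpm unfractionated). Whether the shift of the list exceeded the spread between replicates was not tested. Cntnap5a, at 66 and 330 cDNAs (0.427, 0.323 to 0.557), was the gene past 2-fold on the cytoplasmic side.

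**Figure D5:**
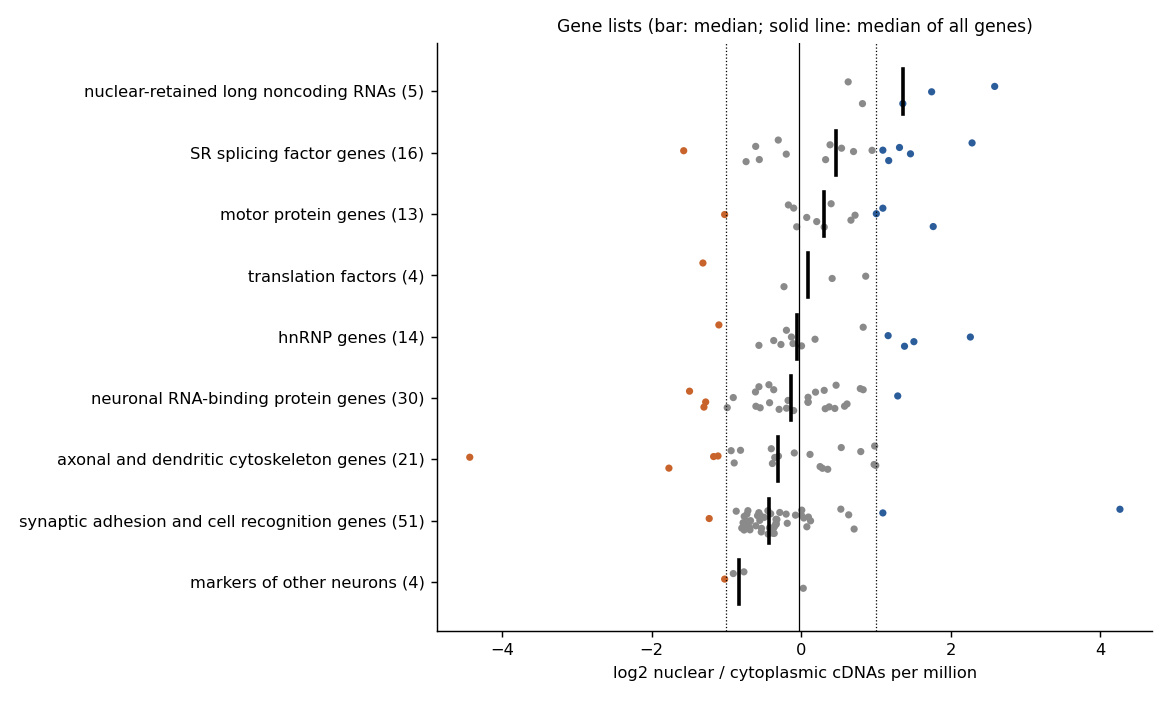
Nuclear over cytoplasmic log2 ratio of the genes in each list with at least 20 cDNAs (number in brackets), points for genes, a bar for each list's median, a solid line for the median of all 2585 genes and dotted lines at 2-fold. The listed nuclear long noncoding RNAs have a median of 1.36 and the adhesion genes -0.42, against -0.02 over all genes.

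Counts of the lists that follow stand beside the 11.2% of all genes called nuclear and the 9.98% called cytoplasmic. Of 16 SR splicing factor genes 5 passed 2-fold towards the nucleus and 1 towards the cytoplasm, with a median log2 ratio of 0.46. Srrm1, a splicing coactivator, had 16 and 7 cDNAs (4.88, 1.90 to 14.0), and Sfrs12 31 and 24 (2.76, 1.57 to 4.91). Of 14 hnRNP genes 4 passed towards the nucleus and 1 towards the cytoplasm, with a median of -0.05. Hnrnph1 as a whole gene had 44 and 36 (2.61, 1.64 to 4.17) and Hnrpdl 27 and 12 (4.80, 2.35 to 10.4). Hnrnpr, which encodes the crosslinked protein itself, had 8 and 17 cDNAs and a ratio of 1.00 (0.375 to 2.45). Of 30 neuronal RNA-binding protein genes 1, Msi2 (101 and 88, ratio 2.45), passed towards the nucleus and 3 towards the cytoplasm, among them Elavl4 (12 and 62, ratio 0.413). The 3 of 30 are near the share of all genes.

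Cytoskeleton genes were read in the same way. Of 21 genes 0 passed 2-fold towards the nucleus and 4 towards the cytoplasm (Marcks, Dcx, Ina and Dpysl3), with a median log2 ratio of -0.30, beside 11.2% and 9.98% of all genes. Outside introns the whole list summed to 87 nuclear and 699 cytoplasmic cDNAs, a ratio of 0.266 (0.210 to 0.332), beside 0.543 (0.522 to 0.566) over all tested protein-coding genes. Of the list's cDNAs outside introns 3' UTRs made up 44 and 522. The list sum takes in members under 20 cDNAs, which the tested genes leave out. Over all genes with at least 20 3' UTR cDNAs other than Snhg11, the 3' UTRs summed to a ratio of 0.253 (0.222 to 0.286). Whether the low ratio is particular to this list was not tested. Ank3, an ankyrin of the axon initial segment, had 264 and 324 cDNAs (1.74, 1.47 to 2.05), and Macf1, a linker of actin and microtubules, 190 and 205 (1.98, 1.61 to 2.42). Ank2 had 280 and 501 (1.19, 1.03 to 1.38), a direction that turns under trimmed-mean scaling (log2 -0.03). Of 13 motor protein genes 3 passed towards the nucleus and 1 towards the cytoplasm, with Kif1a, a kinesin for synaptic vesicle precursors, at 59 and 37 (3.40, 2.22 to 5.28). Cytosolic ribosomal protein genes had 0 members with 20 cDNAs and summed to 54 and 83. Actb, the beta-actin gene, had 0 and 2 cDNAs.

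The NSC34 fractions share no library with the motoneuron pair and give a second reading of the same genes. With antibody 1, 494 of the 2585 genes held at least 20 cDNAs over the NSC34 pair, and 84.6% of these were higher in the nucleus. Of the 46 called nuclear in motoneurons, 39 (84.8%) were higher in the nucleus in NSC34 cells, a share near that of all genes. Of the 37 called cytoplasmic, 12 (32.4%) were higher in the cytoplasm, against 15.4% of all 494. With antibody 2 only 25 genes could be read, of which 76.0% were higher in the nucleus and 24.0% in the cytoplasm. All 4 nuclear-called genes were nuclear there and all 5 cytoplasmic-called genes cytoplasmic. The 5 include Rn7sk, Rny3 and both mitochondrial ribosomal RNAs, already described above.

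A direct test of the difference between the cell types used the 10 hnRNP R libraries. The nuclear to cytoplasmic ratio was lower in motoneurons for 168 of 10040 genes (1.67%) and higher for 1, mmu-mir-2133-2 (0.00996%), by edgeR's quasi-likelihood test of the interaction with Benjamini-Hochberg adjustment. With DESeq2 size factors in the same test, 6 genes were lower and 2 higher, and 7 of the 169 calls remained. Of the 169 genes, 107 had 0 cDNAs in both NSC34 cytoplasmic libraries. The cytoplasmic motoneuron cDNAs of the 169 genes were 95.5% intronic, and the genes' median span was 189 kb.

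Levels of RNA were set beside the ratios from the authors' deposited table, which gives 1 FPKM value per group with no replicate spread. In the somatodendritic control the median was 14.7 FPKM for the nuclear genes, 14.0 FPKM for the cytoplasmic genes and 12.7 FPKM for all 2585 genes in the authors' deposited table, of which 2500 had a match. The 67 genes with a cytoplasmic 3' UTR had a median of 45.1 FPKM there. All 82 genes with at least 20 3' UTR cDNAs, which include the 67, had 38.6 FPKM. In the axonal control the authors' deposited table gives medians of 10.6, 7.64, 7.58, 17.0 and 16.9 FPKM in the same order. With 0.1 FPKM added, the median log2 axonal to somatodendritic ratio was -0.61 for nuclear genes, -1.03 for cytoplasmic genes and -0.81 for all. It was -1.31 for the 67 genes and -1.27 for the 82, so the 67 lay near the genes they were taken from. The 2 compartments came from tables that were scaled separately.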

How the data were processed

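The iCLIP values are whole-number counts of cDNAs per gene and gene part, which the authors deposited as 1 table per library, on build mm9 with Ensembl 59 per the file headers. How reads were trimmed, aligned and collapsed is not stated in the sources used here. A further 1232 per-sample columns of these tables were not used. The headers of both motoneuron fractions carry library number 8. The IgG header names hnRNP R, and its identity rests on its title. RNA levels are FPKM values of the GFP control groups, made by the authors with Cufflinks 2.2.1 on GRCm38 per the submitters' processing notes.

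Each gene's cDNAs were divided by the library total, and the exact (Clopper-Pearson) 95% limits of the nuclear share were carried to the ratio. For a gene with 0 cDNAs in 1 library, a floor of 3 counts gave a bound, a nominal value that can exceed the exact 95% limit. The pooled fits used edgeR 4.0.16 in R 4.3.3 (TMM, quasi-likelihood, Benjamini-Hochberg at 0.05, at least 10 cDNAs over the libraries fitted). They had a term for antibody 2 in the test between cell types, and DESeq2 1.42.0 as an alternative. Tables were made with Python 3.11.15. On simulated data for the whole-gene fit (9481 genes), 38.0% of genes raised 4-fold and 90.0% raised 8-fold were called. Of genes lowered to 0.25 and to 0.125, 14.0% and 24.0% were called, with 0.0215% of unchanged genes. The changes were put only in genes with more cDNAs than the minimum of the fit. All simulated libraries shared the same profile and a common dispersion, without a difference between cell types, so these rates need not hold for the data.

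Named genes were the 12 with the highest lower limit and the 12 with the lowest upper limit, the 5 with most cDNAs per library, Rn7sk, Malat1, Actb and Hnrnpr, and up to 4 members with most cDNAs in each of 22 lists. For shares within genes, the 4 largest shifts each way at 50 cDNAs or more were added. Genes named for their 3' UTR, for their coding part or as the members of a list past 2-fold were chosen after their values were seen, as was the gene parts fit. The members and lists were chosen with earlier results of these data known. Replicates of unfractionated motoneurons differed beyond sampling noise (chi-square of 3.80 per gene over 4380 genes) and counted separately. In all, 28 alternatives were run. The values of 1 gene that the rule names are not reported here.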

Additional observations from a re-analysis of the deposited data

Results flagged for a closer look

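For 4 named genes, the nuclear to cytoplasmic ratio differed between motoneurons and NSC34 cells by edgeR's quasi-likelihood test of the interaction. The difference was always towards a lower ratio in motoneurons. It rested on few NSC34 cDNAs, and with DESeq2 size factors it did not pass the threshold for any of the 4.

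Ptbp2, the neuronal polypyrimidine tract binding protein, had 26 nuclear and 82 cytoplasmic cDNAs in motoneurons. In NSC34 cells it had 33 and 0 with antibody 1 and 4 and 0 with antibody 2, an order kept below. Its fitted log2 difference of -9.53 depends on the prior count and is no bound (edgeR adjusted p = 0.0127, and 0.313 with DESeq2 size factors).

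Kif5c, a neuronal kinesin heavy chain, had 40 and 81 cDNAs in motoneurons and 25 and 0, then 5 and 0, in NSC34 cells. Its log2 difference was -8.71, again with no cytoplasmic cDNA in NSC34 cells (edgeR adjusted p = 0.0481, and 0.503 with DESeq2 size factors). Luc7l2, a splicing factor, had 38 and 135 against 53 and 4, then 16 and 3, with a log2 difference of -2.93 (edgeR adjusted p = 0.0357, and 0.708 with DESeq2 size factors). AC127299.2 had 2 and 38 against 9 and 0, then 6 and 3, with a log2 difference of -4.72 (edgeR adjusted p = 0.0387, and 0.426 with DESeq2 size factors). The part of scaling and of the shallow NSC34 cytoplasmic libraries (3569 and 2796 cDNAs) in these differences was not tested.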

How the results depend on the processing

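No paired analysis was possible because the nuclear and cytoplasmic motoneuron libraries are 1 each and carry no replicate number. Genes past 2-fold towards the nucleus and the cytoplasm numbered 289 and 258. They became 166 and 442 with TMM factors, 164 and 458 with DESeq2 size factors, 77 and 81 at 50 cDNAs or more, 705 and 556 at 10 or more, 37 and 14 where the interval had to exclude 2-fold, and 10 and 110 with exonic cDNAs only. For 3' UTRs the counts of 1 and 67 became 9 and 212 at 10 cDNAs or more, and 6 cytoplasmic ones at 50 or more. The nuclear to cytoplasmic ratio of the intron share moved from 1.05 to 1.03 without Rn7sk and the mitochondrial RNAs. That of the noncoding RNA share moved from 0.841 to 1.66, a reversal, and to 0.937 without the 10 most abundant genes. In the pooled edgeR fit, the 6 nuclear calls became 12 with DESeq2 size factors, 3 with no filter, 23 at 20 cDNAs or more over the pair and 10 with the 4 motoneuron libraries. Leaving out 1 unfractionated replicate at a time gave 8 to 10 nuclear and 13 to 15 cytoplasmic calls, and all 19 calls were kept each time. DESeq2's Wald test called 0 nuclear and 0 cytoplasmic genes. On gene parts, 8 nuclear calls became 18 with DESeq2 size factors and 0 by the Wald test, and 31 cytoplasmic calls became 2 by the Wald test. The 4 motoneuron libraries alone gave 24 and 47, and leaving out 1 replicate at a time gave 10 to 19 nuclear and 35 to 43 cytoplasmic calls. Between cell types, 1 higher and 168 lower became 2 and 6 with DESeq2 size factors, 259 lower with antibody 1 only, and 60 lower with no filter. The cause of these changes was not tested, except that each minimum changes the genes tested. The NSC34 cytoplasmic libraries limit the last comparison, since 3 counts there equal 841 and 1073 cpm.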

Other observations

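The remaining gene lists stand beside 11.2% of all 2585 genes past 2-fold towards the nucleus and 9.98% towards the cytoplasm. Of 4 translation factor genes with at least 20 cDNAs, 0 passed 2-fold towards the nucleus and 1 towards the cytoplasm. Outside introns, the 27 translation factor genes with any cDNA summed to 23 nuclear and 93 cytoplasmic cDNAs. Nuclear-encoded respiratory chain genes had 3 members with at least 20 cDNAs, and 0 passed 2-fold either way. Among genes of the 7SK particle and P-TEFb, Rn7sk was the 1 of 2 past 2-fold. Of the list of Y RNAs, RNase P, MRP, 7SL and BC1 RNAs, both members with at least 20 cDNAs passed it towards the cytoplasm. The 1 histone gene with at least 20 cDNAs had a log2 ratio of -0.30. Of 4 markers of other neurons 0 passed towards the nucleus and 1, Slc17a6 (12 and 52 cDNAs, a ratio of 0.492), towards the cytoplasm. The snoRNA and scaRNA list summed to 184 nuclear and 33 cytoplasmic cDNAs and the snRNA list to 87 and 70. No record of either list reached 20 cDNAs.

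By Ensembl type, all 7 miscellaneous RNAs passed 2-fold towards the cytoplasm, with a median log2 ratio of -3.08. These are the 7SK and Y RNA records described above. Of 13 lincRNAs 2 passed towards the nucleus and 3 towards the cytoplasm, and of 25 processed transcripts 5 and 5. RP23-22A15.2 had 2 and 55 cDNAs in its noncoding part, 12.9-fold higher in the cytoplasm (edgeR adjusted p = 0.0013). Antisense cDNAs came to 4.25% of the sense cDNAs in the nuclear and 2.50% in the cytoplasmic library, with 3.26% and 2.16% in the unfractionated motoneuron libraries and 5.83% in IgG.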
